A study of Mus musculus with 800 samples.

Results

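The neuregulins Nrg1, Nrg2 and Nrg3 and the receptors Erbb2, Erbb3, Erbb4 and Egfr were taken from a table of 32285 genes by their Ensembl identifiers, and all 7 were found. Their counts were read in 800 single nuclei of C57Bl/6J mice that carried no transgene named in the labels. Each mouse had received an adeno-associated virus with the PHP.eB capsid, which crosses into the brain from the blood, at 5e11 vector genomes per mouse in young adulthood. Nuclei were sorted 3 to 4 weeks later for H2B-SYFP2, a yellow fluorescent protein that its histone part keeps in the nucleus. The 20 vectors differ in the enhancer or promoter that drives this reporter, and 40 nuclei were labelled for each. hSyn1 is a promoter active in neurons and CMV a viral promoter active in most cells. DLX2.0 and hI56i carry Dlx enhancers of forebrain inhibitory neurons. The other 16 vectors bear codes beginning with AiE and no target cell type in the labels. No group lacked a virus, so all nuclei come from injected animals and from cells in which a vector was active. The labels name no animal, so a vector was treated as 1 sample, vectors were not tested against each other, and the spread between vectors may be technical.

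Neuregulins are growth factors with an EGF-like domain. Most are made as membrane proteins, and proteases such as Bace1 and Adam17 release the signalling part. Erbb3 and Erbb4 bind neuregulins, Egfr binds EGF, TGF-alpha and related ligands, and Erbb2 binds no ligand but is the preferred dimer partner of the others. Erbb3 has little kinase activity of its own and signals through its partner. In the forebrain Erbb4 is known as a receptor of GABAergic interneurons, where neuregulin signalling shapes their migration and synapses, while Nrg1 type III on axons is best known for controlling myelination by Schwann cells.

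The genes differ greatly in size, which bears on nuclear RNA because nuclei hold much unspliced transcript. In the mm10 annotation Erbb4 spans chr1:68032186-69108059 (1075.9 kb, minus strand), Nrg1 chr8:31814551-32884029 (1069.5 kb, minus) and Nrg3 chr14:38368952-39473088 (1104.1 kb, minus). Egfr spans 166.0 kb at chr11:16752203-16918158 (plus). Erbb2 and Erbb3 are short genes of 25.2 kb (chr11:98412470-98437716, plus) and 22.1 kb (chr10:128567523-128589652, minus). The sources used here do not give whether intronic reads were counted, so levels of different genes are compared below only per kb of merged exons, and that scale may not suit them. The 250 bases before the start of Erbb4 (chr1:69108060-69108309, minus) and of Egfr (chr11:16751953-16752202, plus) are shown because these receptors were found in the same interneuron nuclei. They are RefSeq sequences of GRCm38.p6, and 4 of the 7 genes were matched in the sequence table used here. Capitals mark a GC box (GGGCGG, searched on both strands):
Erbb4: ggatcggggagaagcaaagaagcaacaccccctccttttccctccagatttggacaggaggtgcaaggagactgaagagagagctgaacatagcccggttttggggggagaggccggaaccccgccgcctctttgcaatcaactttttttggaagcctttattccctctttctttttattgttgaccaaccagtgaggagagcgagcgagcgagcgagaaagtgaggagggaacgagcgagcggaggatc
Egfr: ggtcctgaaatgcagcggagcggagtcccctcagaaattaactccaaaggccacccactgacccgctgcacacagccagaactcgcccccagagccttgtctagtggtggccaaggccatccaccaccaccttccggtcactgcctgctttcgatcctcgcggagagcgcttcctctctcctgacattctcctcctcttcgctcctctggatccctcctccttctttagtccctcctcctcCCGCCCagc
The Egfr window holds 1 GC box and the Erbb4 window none, against 32.7% of 32851 promoter windows of this length with at least 1. Neither holds a TATA box (TATAAA, either strand, in 12.4% of windows). They hold 11 and 12 CpG dinucleotides, and the median window holds 6.

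Nuclei held a median of 260170.5 counts (70 to 901264) and 2576.5 detected genes, and 790 had at least 500 genes. Clustering without the 7 genes and without 69 listed genes of the ErbB pathway gave 279 GABAergic-like, 165 striatal projection neuron-like, 109 glutamatergic-like, 112 astrocyte-like and 125 oligodendrocyte-like nuclei, named from markers. Striatal projection neuron-like nuclei, 10 of whose 12 markers were present in at least 25% of nuclei, go against the label of anterior lateral motor cortex that all 800 nuclei carry. The series also describes sorts of striatum and visual cortex, which no sample label names. For the members that passed the low-count filter, the tests of glia against neuronal-like nuclei, which include them, are therefore also given without them, an alternative chosen after seeing the data. Among GABAergic-like nuclei 122 were Pvalb-like, 82 Sst-like and 16 Lamp5-like, and 59 stayed unnamed, in clusters with Vip (27), Lhx8 (28) and Chat (4) among their 10 leading genes. Libraries carry 4 series numbers, of which S40324 (312 nuclei) and S40326 (408) are large enough for values within a series. Levels are CPM, the counts of a gene per 1000000 counts in the sum over the nuclei of a class under a vector, for vectors with at least 3 such nuclei. Shares of nuclei with at least 1 count have exact Clopper-Pearson 95% intervals, which cover counting error only and treat nuclei as independent. Where no nucleus had a count, the share allowed is instead 3 over the number of nuclei, an approximate 1-sided 95% limit. It lies below the exact upper bound (for 0 of 165 nuclei, 1.82% against 2.21%).

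Erbb4 was the most widely detected receptor and was concentrated in GABAergic-like nuclei. It had a count in 162 of 279 of them (58.1%, 52.0 to 63.9%), in 11 of 165 striatal projection neuron-like (6.67%, 3.37 to 11.6%), 6 of 125 oligodendrocyte-like (4.80%, 1.78 to 10.1%), 5 of 112 astrocyte-like (4.46%, 1.47 to 10.1%) and 1 of 109 glutamatergic-like nuclei (0.917%, 0.0232 to 5.01%). Median depths of these classes lay between 240080 and 294820 counts, and after thinning every nucleus to 140000 counts the GABAergic-like share was 57.2%. Summed GABAergic-like levels ran from 0 to 613.0 CPM over 19 vectors with a median of 325.1, a mean of 308.9 ± 149.0 (SD, n = 19). The only vector at 0 was AiE0779m, with 3 GABAergic-like nuclei and none of them Pvalb-like, and the other 18 lay at 88.5 CPM or above. Striatal projection neuron-like sums ran from 0 to 44.95 CPM with a median of 0 (11.3 ± 15.7, n = 14), and glutamatergic-like sums were 0 in 11 of 12 vectors and 1.59 CPM in the other. The order of the lower classes is not resolved, since astrocyte-like (3.92 ± 6.91 CPM, n = 8), striatal projection neuron-like and oligodendrocyte-like (21.96 ± 37.5 CPM, n = 10) levels overlap.

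**Figure D1:**
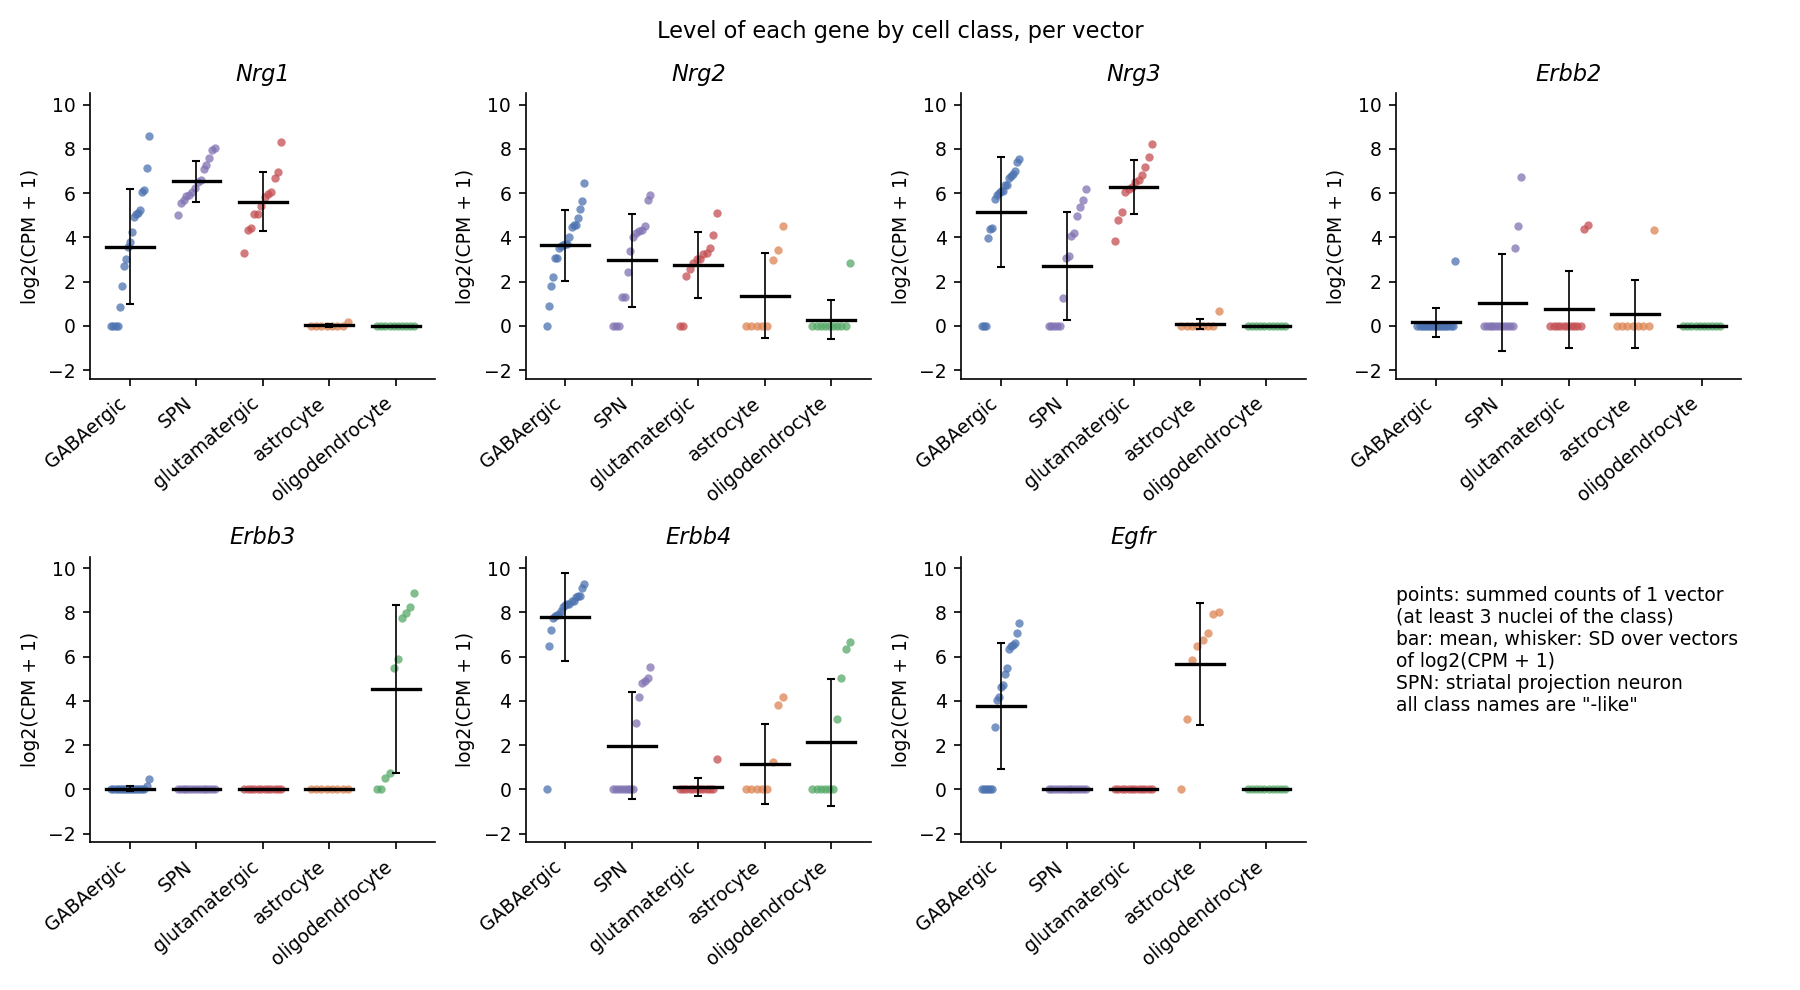
Level of each gene as log2(CPM + 1) in 5 cell classes, with 1 point per vector (at least 3 nuclei of the class), the mean as a bar and the SD over vectors as a whisker. Erbb4 is high in GABAergic-like sums except 1 vector at 0, Erbb3 is above 1 CPM only in oligodendrocyte-like sums, and Egfr is found in GABAergic-like and astrocyte-like sums.

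In the 12 vectors with both classes, Erbb4 was 88.5 to 554.6 CPM in GABAergic-like sums (median 282.5) and 0 to 1.59 CPM in glutamatergic-like sums (median 0). The sums did not overlap and the GABAergic-like one was higher in 12 of 12 vectors. With edgeR's quasi-likelihood test, vector as a block and Benjamini-Hochberg adjustment over all genes, the log2 fold change was 11.46 (SE 0.89, adjusted p = 4.2e-09). Fitted changes against sums near 0 depend on the prior count. The pooled counts, 13803 against 3, give a ratio of 2604 with a counting interval of 891 to 12630. Such intervals, here and below, treat every count as independent and leave out the spread between nuclei and vectors. The libraries carried no molecular identifiers, so the intervals are too narrow. Erbb4 was the only 1 of the 4 members tested here that passed an adjusted p of 0.05, where 2.94% of 9121 genes did (268), 1.64% as higher. Against striatal projection neuron-like nuclei the GABAergic-like sum was higher in 12 of 13 vectors and tied at 0 in AiE0779m. The log2 fold change of striatal projection neuron-like over GABAergic-like was -6.12 (SE 1.09, edgeR adjusted p = 0.00051), and the pooled GABAergic-like level was 22.6 times the other (counting interval 20.7 to 24.7). Again Erbb4 alone passed of 4 members tested, against 7.49% of 9214 genes, 4.23% as lower. Erbb4 shares among GABAergic-like nuclei were nearly equal in series S40324 (58.6%) and S40326 (58.1%). They were also close in runs of 8 consecutive nuclei with and without striatal projection neuron-like nuclei (56.96% of 79 and 58.5% of 200). Without such runs, an alternative chosen after seeing the data, the change against glutamatergic-like nuclei was 12.85 (adjusted p = 1.4e-05, 6 vectors).

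**Figure D2:**
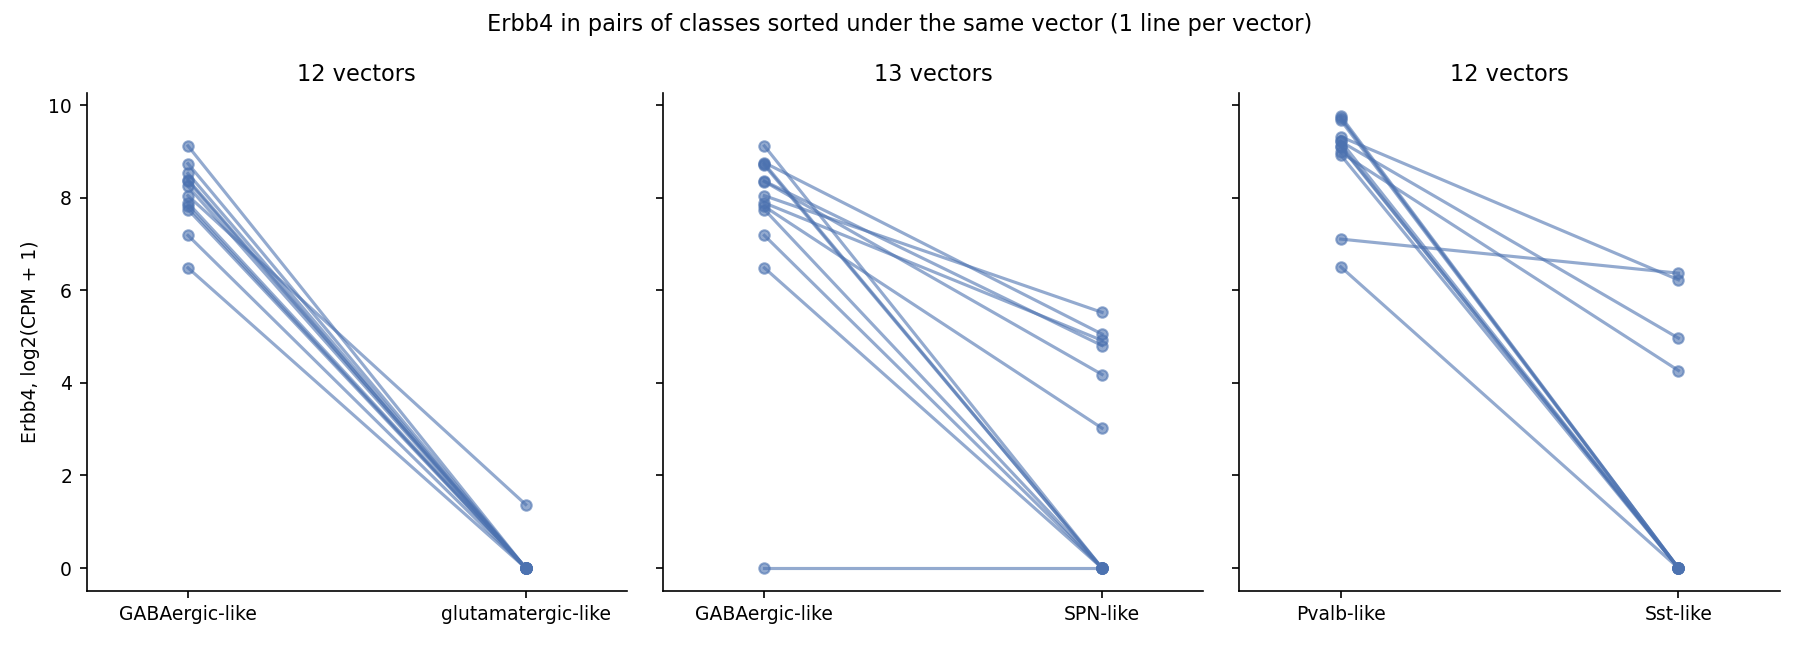
Erbb4 as log2(CPM + 1) in pairs of classes under the same vector, with 1 line per vector. Every line falls from GABAergic-like to glutamatergic-like (12 vectors) and from Pvalb-like to Sst-like (12 vectors), and 1 of the 13 lines to striatal projection neuron-like (SPN-like) nuclei is flat at 0.

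Within GABAergic-like nuclei Erbb4 followed the kind of interneuron. Pvalb-like nuclei, the fast-spiking basket and chandelier type in cortex, held it in 114 of 122 (93.4%, 87.5 to 97.1%). Sst-like nuclei, which express the peptide somatostatin, held it in 10 of 82 (12.2%, 6.01 to 21.3%). Summed Pvalb-like levels were 89.9 to 867.0 CPM with a median of 574.7 (556.3 ± 212.8, n = 16), and Sst-like levels were 0 to 81.7 CPM with a median of 0 (16.995 ± 29.994, n = 12). All 12 vectors with both kinds had the higher level in Pvalb-like nuclei, and the sums did not overlap. The log2 fold change of Sst-like over Pvalb-like was -8.67 (SE 1.33, edgeR adjusted p = 0.0005), and the pooled Pvalb-like level was 36.8 times the Sst-like one (counting interval 32.96 to 41.3). It was 1 of 3 members tested, in a comparison where 0.443% of 7228 genes passed (32 genes), 0.249% as lower. The call was lost when nuclei were assigned by a marker score per nucleus in place of clusters (log2 fold change -3.81, adjusted p = 0.080). Within series S40326 alone it was -9.26 (adjusted p = 0.018, 7 vectors).

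The Pvalb-like nuclei formed 3 clusters, and Erbb4 was frequent in all of them: 61 of 65 nuclei in the largest cluster, with Pvalb in 92.3% of nuclei (93.8%), 32 of 36 in a cluster with Tac1 (88.9%) and 21 of 21 in a cluster with Pthlh (100%, 83.9 to 100%). Tac1 and Pthlh were not among the 10 leading genes of the clusters named for them. The share of Tac1 in its cluster is not given here. That name is only a label for a cluster whose leading genes include A930002C04Rik and Alkal2. In the largest cluster Tac1 was in 36.9% of nuclei and Pthlh in 13.8%. Both Sst-like clusters were low, at 5 of 53 nuclei in the cluster with Pdyn among its leading genes (9.43%) and 5 of 29 in the cluster with Chodl (17.2%). Chodl, a marker of long-range Sst cells, was in 14.6% of the 82 Sst-like nuclei, so not all 29 held it. The unnamed cluster with Vip had Erbb4 in 22 of 27 nuclei (81.5%, 61.9 to 93.7%), Lamp5-like nuclei in 8 of 16 (50.0%, 24.7 to 75.3%), the cluster with Lhx8 in 8 of 28 (28.6%, 13.2 to 48.7%) and the cluster with Chat, which makes acetylcholine, in 0 of 4. In the cluster with Vip that gene was in 25.9% of nuclei, Sst in 51.9% and Npy in 63.0%. Where present, Erbb4 was at a median of 491.9 CPM per nucleus in Pvalb-like, 555.1 in Lamp5-like and 495.1 in nuclei of the cluster with Vip, against 88.8 in the 10 positive Sst-like nuclei. Those 10 nuclei had Gad1 in 50.0% and the 72 other Sst-like nuclei in 80.6%, which was not tested. Kinds and clusters come from the same nuclei, and the rule that named them was settled after the clusters were seen.

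**Figure D3:**
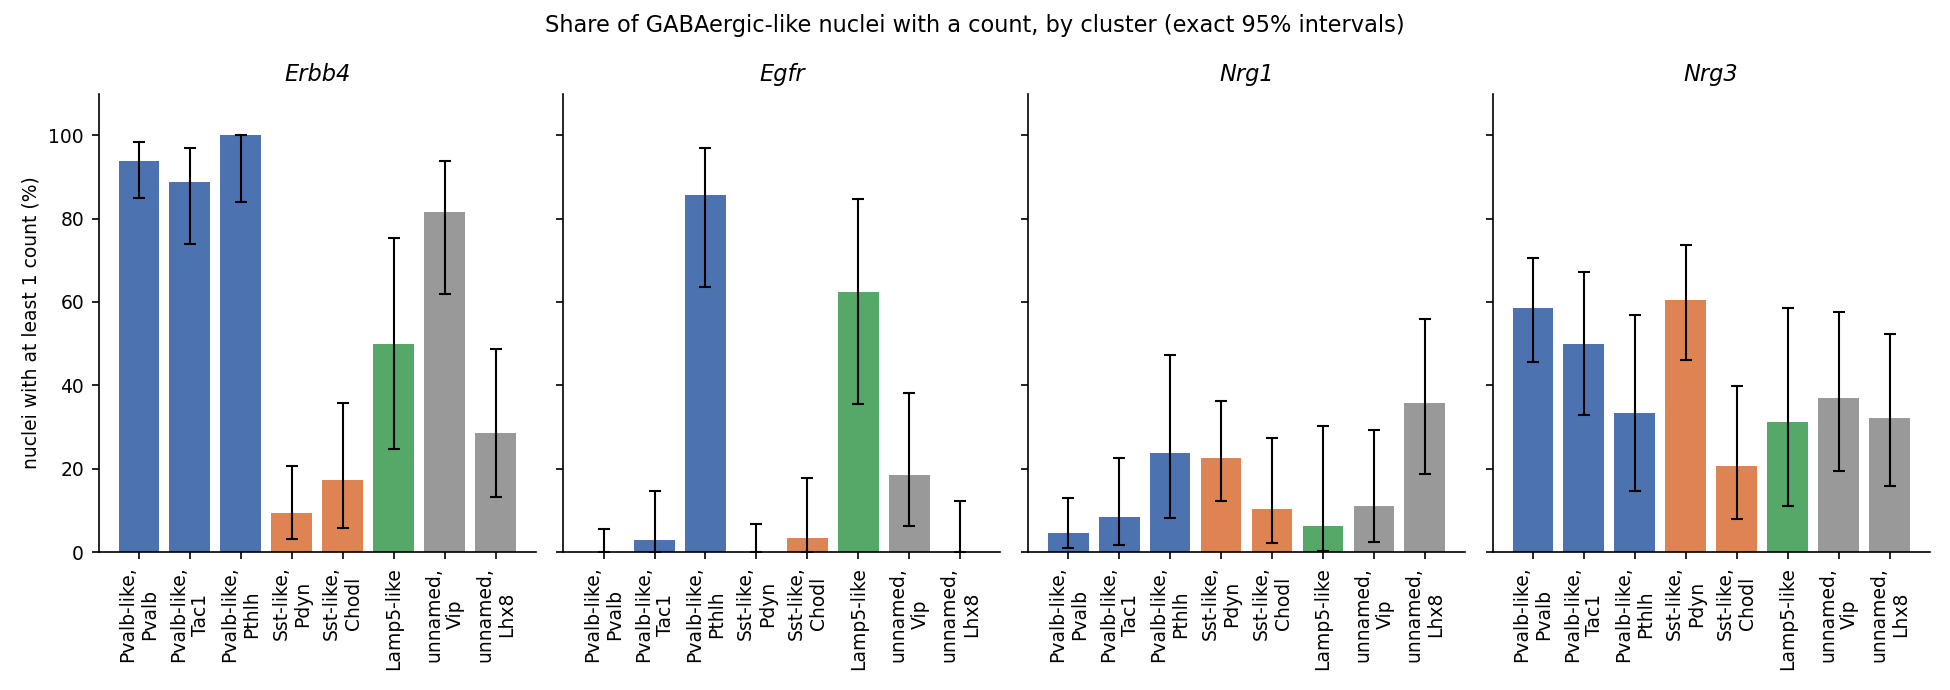
Share of nuclei (%) with at least 1 count of Erbb4, Egfr, Nrg1 and Nrg3 in 8 clusters of GABAergic-like nuclei, with exact 95% intervals. Erbb4 is above 80% in the 3 Pvalb-like clusters and the cluster with Vip and below 20% in both Sst-like clusters, while Egfr is above 60% only in the Pvalb-like cluster with Pthlh and the Lamp5-like cluster.

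Egfr, the receptor of EGF and TGF-alpha, was detected in 60 of the 800 nuclei mainly in astrocyte-like nuclei and a few clusters of interneurons. It had a count in 25 of 112 astrocyte-like nuclei (22.3%, 14.996 to 31.2%) and 35 of 279 GABAergic-like nuclei (12.5%, 8.90 to 17.01%). None of 165 striatal projection neuron-like, 109 glutamatergic-like or 125 oligodendrocyte-like nuclei had a count, which allows shares of up to 1.82%, 2.75% and 2.40%. Astrocyte-like sums ran from 0 to 258.3 CPM with a median of 96.7 (111.5 ± 96.9, n = 8), highest in CMV (258.3) and AiE0391h (241.8), and at 0 in AiE0445h_3xC2. GABAergic-like sums ran from 0 to 181.5 CPM with a median of 23.4 (44.1 ± 52.9, n = 19), and 6 vectors were at 0. The 2 classes overlap fully. Per kb of exon, mean Egfr was 3.89 CPM in GABAergic-like nuclei, below the 24.999 CPM of Erbb4 there.

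By share of nuclei, Egfr among interneurons was found mainly in 2 small clusters. The Pvalb-like cluster with Pthlh, a parathyroid hormone-like peptide, held it in 18 of 21 nuclei (85.7%, 63.7 to 97.0%), and all 18 also held Erbb4. Its sums were 84.3 CPM in AiE0387m, 230.9 in AiE0600m and 388.4 in AiE0475m. Lamp5-like nuclei, which are mostly neurogliaform cells in cortex, held Egfr in 10 of 16 (62.5%, 35.4 to 84.8%), at 97.6 CPM in AiE0445h_3xC2 and 153.9 in DLX2.0. The cluster with Vip held it in only 5 of 27 nuclei (18.5%). Its sums still ran from 0 to 653.8 CPM with a median of 181.8 (254.4 ± 292.1, n = 4), overlapping those of both clusters above. In the largest Pvalb-like cluster 0 of 65 nuclei had a count, which allows up to 4.62%, and the cluster with Tac1 had 1 of 36. Sst-like nuclei had 1 of 82. Since astrocytes also hold Egfr, their markers were read in these clusters. In the Pthlh cluster 2 of 11 astrocyte markers were in at least 25% of nuclei and 6 were at 0, among them Aqp4 and Gja1. Marker levels are given here as means of CPM over single nuclei, while ranges over vectors come from summed counts. The astrocyte markers summed to 493.0 CPM (431.8 to 821.2 over vectors), against 24159 CPM in astrocyte-like nuclei. This marker sum was lower in the other Pvalb-like clusters, at 248.6 CPM in the largest and 195.3 CPM in the cluster with Tac1. Slc1a3, the glial glutamate transporter, was an exception at 61.9% of nuclei and 240.2 CPM, against 4378 CPM in astrocyte-like nuclei. In the largest Pvalb-like cluster Slc1a3 was in 4.62% of nuclei at 0.236 CPM. Whether these markers go with Egfr was not tested. In the Pthlh cluster Gad1, which makes GABA, was in 100% and Pthlh itself in 85.7%. In Lamp5-like nuclei 1 of the 11 astrocyte markers was in at least 25% of nuclei, 6 were at 0 and the summed level was 405.6 CPM (131.0 to 539.1 over vectors). Egfr was in 11 of 11 Pthlh-cluster nuclei from runs without striatal projection neuron-like nuclei and in 7 of 10 from runs with them.

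In the test of astrocyte-like against all neuronal-like nuclei Egfr did not pass, with a log2 fold change of 1.80 (SE 2.32, edgeR adjusted p = 0.62) and 5 of 8 vectors higher. Without striatal projection neuron-like nuclei it was 1.81 (adjusted p = 0.65). The sign turned within series S40326 alone (-1.33), where astrocyte-like Egfr was 43.8 CPM against 181.7 CPM in series S40324. Egfr was too sparse for the low-count filter in the comparisons between neurons. Without the filter it passed between GABAergic-like and glutamatergic-like nuclei (edgeR adjusted p = 0.0017, where 2.43% of genes passed). It also passed between striatal projection neuron-like and GABAergic-like nuclei (8.3e-05, 6.64% of genes). With the undetected class set to 3 counts in all, its pooled GABAergic-like level was 481 times the glutamatergic-like and 703 times the striatal projection neuron-like level. These ratios leave out the sampling of nuclei, so they are not lower bounds. Egfr was higher in GABAergic-like sums in 8 of 12 and 9 of 13 vectors and tied at 0 in the other 4 of each.

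Erbb3 was found mainly in oligodendrocyte-like nuclei, the myelin-forming glia. It had a count in 25 of 125 of them (20%, 13.4 to 28.1%) and in 2 of 279 GABAergic-like nuclei, and in none of the striatal projection neuron-like, glutamatergic-like or astrocyte-like nuclei, which allows shares of up to 1.82%, 2.75% and 2.68%. Oligodendrocyte-like sums ran from 0 to 470.3 CPM with a median of 51.0 (134.4 ± 165.8, n = 10). AiE0140h (470.3), AiE0447h (301.6), AiE0410m (253.1) and AiE0452h (215.6) were high, AiE0391h and AiE0779m were under 1 CPM, and AiE0445h_3xC2 and DLX2.0 were at 0. The 2 positive GABAergic-like nuclei held 4 counts in all. Without the low-count filter, which Erbb3 did not pass, it was higher in oligodendrocyte-like than neuronal-like sums in 8 of 10 vectors and tied at 0 in 2 (edgeR adjusted p = 0.0002). In that fit 36.5% of 20001 genes passed, 396 as higher and 6904 as lower. Pooled counts of Erbb3 were 5830 against 1, a ratio of 9963 with a wide counting interval of 1788 to 393590. Over all nuclei of each class the levels were 164.2 CPM and, from 4 counts, 0.0279 CPM. Shares were 15.2% in series S40324 and 25.5% in series S40326. Markers of oligodendrocyte precursors summed to 19.6 CPM in this class, as a mean over single nuclei, with Pdgfra at 0. Oligodendrocyte-like nuclei with and without Erbb3 had like depths (medians of 294060 and 272460 counts).

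Erbb2, the partner receptor without a ligand, was detected in 7 of 800 nuclei: 3 striatal projection neuron-like, 2 glutamatergic-like, 1 GABAergic-like and 1 astrocyte-like. None of the 125 oligodendrocyte-like nuclei had a count (up to 2.40%), although this class held Erbb3. With 553 counts in 7 nuclei Erbb2 passed the low-count filter in no comparison, and differences between classes were not detectable at this depth.

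Few glial nuclei held Erbb4. Astrocyte-like sums were 0 to 16.8 CPM (median 0) and the neuronal-like sums of the same vectors 43.2 to 613.0 CPM (median 230.8), lower in 8 of 8 vectors with no overlap (log2 fold change -8.82, SE 1.56, edgeR adjusted p = 0.0006). Erbb4 and Nrg3 were called lower of 4 members tested, where 18.4% of 9795 genes passed and 14.6% passed as lower, and the median log2 change of all genes was -2.21. Without striatal projection neuron-like nuclei on the neuronal side Erbb4 was at -8.99 (adjusted p = 0.00038). Within series it was -12.27 in S40324 (adjusted p = 0.0050) and -6.58 in S40326 (0.073), with 4 vectors each. The 5 astrocyte-like nuclei with Erbb4 were all in series S40326, and Gad1 was in 40% of them against 3.74% of the other 107, which was not tested.

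In oligodendrocyte-like nuclei Erbb4 was at 0 in 6 of 10 vectors and highest in AiE0682h (100.9 CPM) and AiE0410m (79.02), while neuronal-like sums ran from 0 to 288.8 CPM (median 230.5). It was lower in 9 of 10 vectors (log2 fold change -8.68, SE 3.04, edgeR adjusted p = 0.018), but the pooled ratio was only 5.35 (counting interval 5.03 to 5.69). Nrg2 was the other member called, of 2 tested, where 46.6% of 8608 genes passed, 44.2% as lower, and the median log2 change was -4.95, so lower calls are common here. The Erbb4 call was lost without any 1 of AiE0140h, AiE0391h, AiE0445h_3xC2, AiE0452h or DLX2.0 (adjusted p 0.052 to 0.066) and within series S40326 (log2 fold change -0.19). Without the block it was -3.26 (adjusted p = 0.14), and with a minimum of 1000 genes -3.03 (0.34). Without striatal projection neuron-like nuclei it was -9.78 (0.0070). The 6 oligodendrocyte-like nuclei with Erbb4 had Gad1 in 0%, a median of 612.6 CPM and came from 4 vectors.

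Nrg1 was highest in striatal projection neuron-like nuclei and undetected in oligodendrocyte-like ones. It had a count in 96 of 165 striatal projection neuron-like nuclei (58.2%, 50.3 to 65.8%), 49 of 109 glutamatergic-like (44.95%, 35.4 to 54.8%), 44 of 279 GABAergic-like (15.8%, 11.7 to 20.6%) and 3 of 112 astrocyte-like nuclei. None of 125 oligodendrocyte-like nuclei had it (up to 2.40%). Striatal projection neuron-like sums were 31.4 to 262.5 CPM with a median of 82.0 (111.3 ± 75.2, n = 14), glutamatergic-like sums 8.81 to 314.1 CPM with a median of 48.1 (72.8 ± 83.2, n = 12), and GABAergic-like sums 0 to 380.7 CPM with a median of 12.9 (44.3 ± 88.5, n = 19). The first 2 classes do not differ beyond their spread (log2 fold change 0.65, SE 0.83, edgeR adjusted p = 0.96). Against GABAergic-like nuclei Nrg1 was higher in 11 of 13 vectors at a log2 fold change of 3.36 (SE 1.16, edgeR adjusted p = 0.083), which missed the threshold. It passed when AiE0447h (edgeR adjusted p = 0.038, where 647 of 9375 genes passed) or AiE0779m (0.043, 812 of 9337) was left out. It also passed with DESeq2 (2.6e-05, 27.6% of genes) and, with edgeR, without the filter (0.044, 6.64%). A minimum of 1000 genes (0.043, 800 of 9315) and classes from a marker score (0.014, 631 of 9423) gave a call too. In the other alternatives the number of members called did not rise above that of the main fit. The pooled ratio was 4.15 (counting interval 3.89 to 4.44). Among GABAergic-like clusters the share was highest in the cluster with Chat (4 of 4 nuclei) and the cluster with Lhx8 (10 of 28, 35.7%), a transcription factor of ventral forebrain neurons. It was lowest in the largest Pvalb-like cluster (3 of 65, 4.62%). The highest GABAergic-like sum, 380.7 CPM in CMV, rests on 3 nuclei.

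Nrg3, whose receptor is Erbb4, had its lowest share among neuron classes in striatal projection neuron-like nuclei, where the share of Nrg1 was highest. It was in 58 of 109 glutamatergic-like nuclei (53.2%, 43.4 to 62.8%), 127 of 279 GABAergic-like (45.5%, 39.6 to 51.6%), 24 of 165 striatal projection neuron-like (14.5%, 9.55 to 20.9%), 3 of 112 astrocyte-like and 0 of 125 oligodendrocyte-like nuclei (up to 2.40%). Glutamatergic-like sums were 13.5 to 294.3 CPM with a median of 82.8 (101.9 ± 79.2, n = 12), and GABAergic-like sums 0 to 186.7 CPM with a median of 66.4 (70.2 ± 55.01, n = 19). Striatal projection neuron-like sums were 0 to 72.7 CPM with a median of 7.61 (17.4 ± 22.8, n = 14). No difference between neuron classes passed. Striatal projection neuron-like nuclei were at -2.72 against GABAergic-like (SE 1.496, edgeR adjusted p = 0.37, lower in 10 of 13 vectors) and at -3.98 against glutamatergic-like nuclei (SE 1.58, adjusted p = 0.29, lower in 7 of 9). In the latter comparison 0 of 3 members passed, against 2.85% of 7745 genes. Nrg3 alone of the 3 had an unadjusted p under 0.05 (0.020). DESeq2 called it in both comparisons (-2.73, adjusted p = 0.013, and -4.13, adjusted p = 0.00045), where it called 27.6% and 13.6% of genes. By library series, Nrg3 was in 0 of 41 striatal projection neuron-like nuclei of series S40324 and in 22 of 116 of series S40326.

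Astrocyte-like sums of Nrg3 were 0 in 7 of 8 vectors and 0.594 CPM in AiE0391h, against 17.04 to 136.8 CPM (median 57.8) in neuronal-like sums. It was lower in 8 of 8 vectors without overlap (log2 fold change -10.21, SE 1.98, edgeR adjusted p = 0.0013). The call was lost within series S40324 (adjusted p = 0.14) and S40326 (0.079), which have 4 vectors each, at changes of -9.55 and -10.83. Over these 8 vectors the pooled counts were 3 against 2947, a ratio of 639 (counting interval 219 to 3103). Over all 112 astrocyte-like nuclei, vectors with fewer than 3 of them included, Nrg3 had 79 counts (2.36 CPM) against 66.01 CPM in all neuronal-like nuclei. Without striatal projection neuron-like nuclei on the neuronal side the change was -10.20 (adjusted p = 0.0011). Among interneurons Nrg3 did not follow Erbb4: it was in 63 of 122 Pvalb-like (51.6%) and 38 of 82 Sst-like nuclei (46.3%), with a log2 fold change of 0.44 (SE 1.19, edgeR adjusted p = 0.9996) and 6 of 12 vectors in each direction. The Sst-like cluster with Pdyn held it in 32 of 53 nuclei (60.4%, 46.004 to 73.5%) and the cluster with Chodl in 6 of 29 (20.7%, 7.99 to 39.7%).

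Nrg2 (chr18:36017652-36197380, 179.7 kb, minus strand) was the most even of the neuregulins among neurons. It was in 58 of 279 GABAergic-like (20.8%), 22 of 109 glutamatergic-like (20.2%) and 31 of 165 striatal projection neuron-like nuclei (18.8%), in 6 of 112 astrocyte-like (5.36%) and in 1 of 125 oligodendrocyte-like nuclei (0.80%). GABAergic-like sums were 0 to 86.5 CPM with a median of 11.9 (19.1 ± 20.7, n = 19). Striatal projection neuron-like sums had a median of 12.4 (15.6 ± 18.5, n = 14) and glutamatergic-like sums one of 7.25 (8.89 ± 8.80, n = 12). None of its changes between neuron classes exceeded 1.59 in size, and none passed (edgeR adjusted p 0.95 to 0.9996). In astrocyte-like nuclei it was at -5.39 (SE 2.38, edgeR adjusted p = 0.12, lower in 7 of 8 vectors), and -4.54 (adjusted p = 0.16) without striatal projection neuron-like nuclei on the neuronal side. In oligodendrocyte-like sums it was 0 in 9 of 10 vectors and 6.19 CPM in AiE0140h, against 0 to 43.7 CPM (median 19.8) in neuronal-like sums. It was lower in 9 vectors and tied in 1 (-8.32, SE 1.70, edgeR adjusted p = 0.00017), and the pooled ratio was 58.7 (counting interval 34.2 to 110.5). Without striatal projection neuron-like nuclei the change was -8.08 (adjusted p = 0.00034). Without AiE0140h it no longer passed the low-count filter, and within series S40326 the adjusted p was 0.25.

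**Figure D4:**
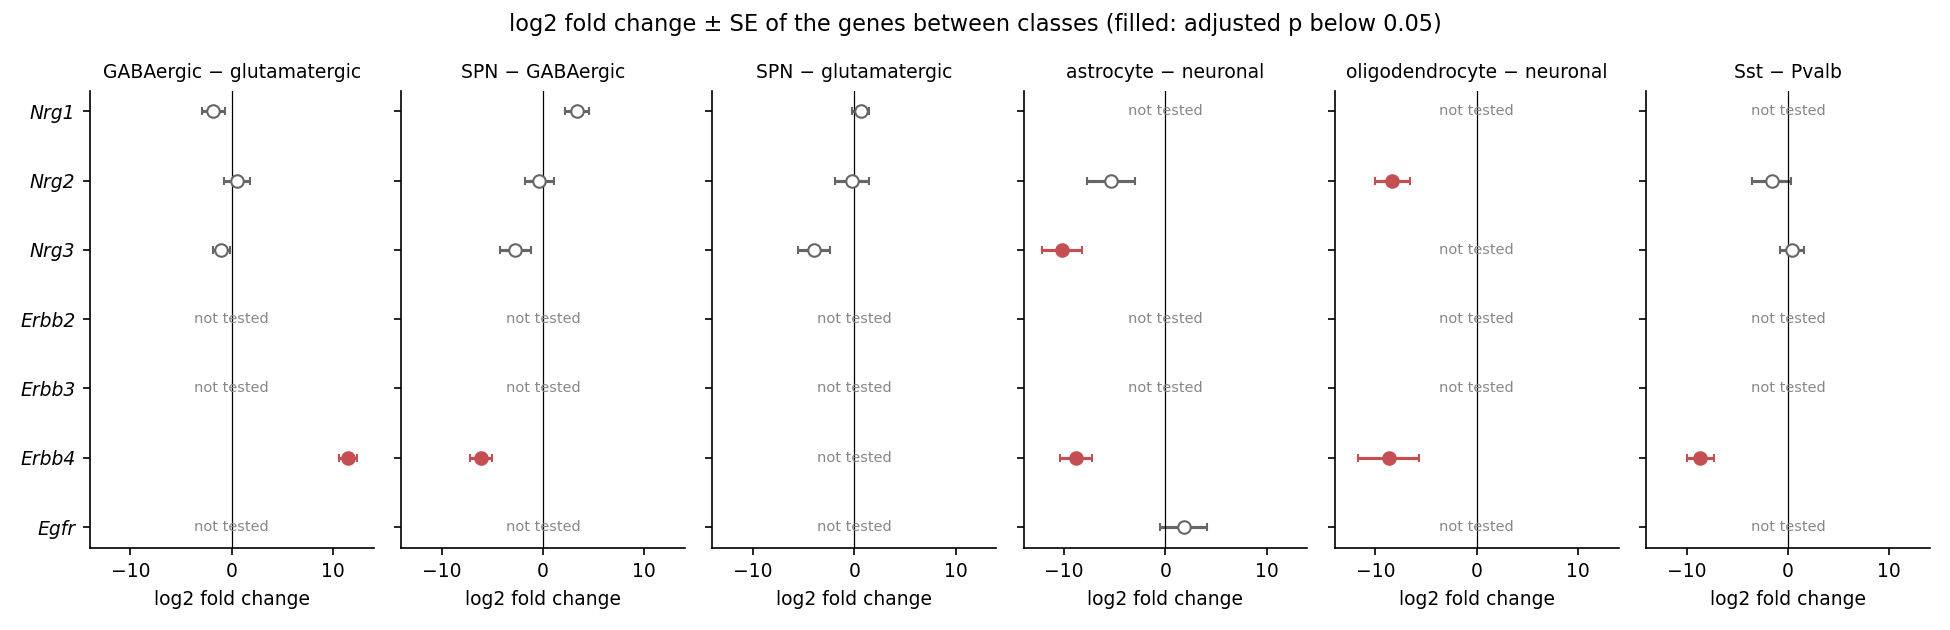
log2 fold change and SE of each gene in 6 comparisons, first class minus second, from edgeR's quasi-likelihood test with vector as a block. Filled points have an adjusted p below 0.05, which Erbb4 reached in the 5 comparisons where it passed the low-count filter, and genes that did not pass the filter are marked as not tested.

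Ligands and Erbb4 were often found in the same Pvalb-like nuclei, where each was frequent. Of 122 Pvalb-like nuclei, 114 held Erbb4 and 82 held at least 1 of Nrg1, Nrg2 and Nrg3 (67.2%). Both were in 80 (65.6%), and 62 held Erbb4 with Nrg3. Whether they share nuclei more often than their own frequencies give was not tested. Over all GABAergic-like nuclei a neuregulin was in 64.2% of the 162 nuclei with Erbb4 and in 63.2% of the 117 without. A neuregulin was in 70.9% of striatal projection neuron-like nuclei and 75.2% of glutamatergic-like nuclei, in which Erbb4 was rare. It was in 8.93% of astrocyte-like and 0.80% of oligodendrocyte-like nuclei. Nrg1 and Nrg3 were together in 31 of 109 glutamatergic-like nuclei, and in 13 of 165 striatal projection neuron-like nuclei. Detection in a nucleus depends on depth, and a nucleus without a count may hold the RNA.

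The other ErbB pathway genes were read from a list of 69, of which 39 to 56 passed the low-count filter. With edgeR 0 of 49 tested passed between GABAergic-like and glutamatergic-like nuclei (8 at an unadjusted p under 0.05, 10 with DESeq2). Between Sst-like and Pvalb-like nuclei 0 of 39 passed (1 unadjusted, 3 with DESeq2). Between striatal projection neuron-like and GABAergic-like nuclei 1 of 51 was higher and 1 lower, where 7.49% of all genes passed, and against glutamatergic-like nuclei 1 of 44 was higher, where 2.85% passed. In the first 2 comparisons the median log2 changes of the list were 0.64 and -0.37, beside 0.38 and -0.35 for all genes tested. Among other ligands, Tgfa, which encodes TGF-alpha and signals through Egfr, was higher in striatal projection neuron-like nuclei. It was at 5.82 to 424.4 CPM there (median 84.9) and at 0 to 21.9 CPM in GABAergic-like sums (median 0), higher in 12 of 13 vectors (7.50, SE 1.27, edgeR adjusted p = 0.00023). Against glutamatergic-like sums of 0 to 26.9 CPM it was higher in 9 of 9 vectors (9.56, SE 1.61, adjusted p = 0.00087). Cspg5, also called neuroglycan C, a membrane proteoglycan with an EGF-like domain, was lower in striatal projection neuron-like than in GABAergic-like nuclei (-1.37, SE 0.40, adjusted p = 0.035). It was at 740.6 to 2722.7 CPM in astrocyte-like sums (median 1624.4) and 157.8 to 224.1 CPM in the neuronal-like sums (median 182.3), without overlap (3.13, SE 0.39, edgeR adjusted p = 1.4e-05).

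In glia most of the tested members of the list did not pass. In astrocyte-like nuclei 2 of 56 tested were higher and 8 lower, where 373 of 9795 genes were higher and 1432 (14.6%) lower, a share near that of the list. The list had a median of -1.74 beside -2.21 for all genes. The other higher gene was Akt2, a kinase downstream of ErbB receptors (mean 181.4 ± 83.5 CPM against 18.6 ± 23.2, 4.08, SE 1.29, edgeR adjusted p = 0.031). Adam19, a protease that can release neuregulin (-9.99, SE 2.51, adjusted p = 0.0084), and Wwox, which binds the Erbb4 intracellular domain (-8.97, SE 2.35, adjusted p = 0.010), were the lower genes with the smallest adjusted p. Wwox was at a median of 0 CPM in astrocyte-like sums against 26.7 in neuronal-like sums, but 1 astrocyte-like sum reached 110.7 CPM, above the highest neuronal-like one of 50.9, and the means were 13.8 and 27.3 CPM. By role, the lower calls were 1 of 3 other ligands, 1 of 4 proteases, 2 of 31 adaptors and kinases, 3 of 10 negative regulators and 1 of 8 Erbb4 partners tested, beside 14.6% of all genes. In oligodendrocyte-like nuclei 1 of 46 was higher and 13 lower, where 209 of 8608 genes were higher and 3801 (44.2%) lower, a larger share than in the list. The list had a median of -3.64 beside -4.95. The higher gene was Erbin, a scaffold that binds Erbb2, at 56.6 to 1697.5 CPM (median 645.6) against 27.4 to 72.3 CPM (median 52.3) in neuronal-like sums, higher in 9 of 10 vectors (2.90, SE 0.97, edgeR adjusted p = 0.014). The lower genes with the smallest adjusted p were Shc2, an adaptor, at 0 in all 10 oligodendrocyte-like sums (adjusted p = 0.00014), and Akt2 (-8.03, SE 1.69, adjusted p = 0.00023). By role, 8 of 25 adaptors and kinases, 2 of 8 negative regulators, 2 of 7 Erbb4 partners, 1 of 2 other ligands and 0 of 4 proteases were lower, beside 44.2% of all genes.

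Genes most like each member over 63 sums of a class under a vector were found by Pearson's r of log2(CPM + 1) among 10595 genes with a mean of at least 10 CPM. These values describe the sums, which share libraries and classes. For Erbb4 they were Gm12120 (0.85), Akain1 (0.83) and Nxph1 (0.82), a neurexophilin found in interneurons and 1 of the GABAergic markers used here. Nrg1 was most like Cacna1e, a calcium channel subunit (0.83), Slit3 (0.79) and Gm45619 (0.79), and Nrg3 most like Etl4 (0.79), Vwa5b2 (0.78) and Gm11418 (0.78). Erbb3 was most like Insc (0.89), Ankub1 (0.83) and Nkx6-2, an oligodendrocyte transcription factor (0.83). Egfr was most like Sh3pxd2b (0.84), Nupr1 (0.84) and Frmpd1 (0.81). Nrg2 reached 0.66 with Chl1 and Osbpl6 and 0.64 with Gria4. Erbb2, with 7 positive nuclei, reached 0.54 with Ly86, 0.48 with Siglech and 0.43 with Cep128.

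Summed over all 40 nuclei of a vector, Erbb4 ran from 2.95 to 301.4 CPM with a median of 108.3. AiE0475m (301.4 CPM, 290.8 to 312.3), AiE0600m (248.8, 239.7 to 258.1) and AiE0452h (231.6, 223.0 to 240.4) were highest. The ranges are exact Poisson 95% intervals, which treat counts as independent and so are too narrow. These vectors held 28, 28 and 29 GABAergic-like nuclei. Within their GABAergic-like nuclei Erbb4 was 425.1, 363.0 and 302.3 CPM, and Pvalb-like nuclei made up 18, 19 and 6 of them. Egfr was highest in AiE0391h (124.5 CPM), CMV (114.7) and AiE0390m (101.5), with 17, 16 and 31 astrocyte-like nuclei, and 0 in 3 vectors. Erbb3 was highest in AiE0410m (211.4 CPM), AiE0447h (174.3) and AiE0140h (104.3), with 32, 22 and 8 oligodendrocyte-like nuclei, and 0 in 11 vectors. Nrg1 (106.7 CPM) and Nrg3 (130.5 CPM) were highest in AiE0078h, which held 18 GABAergic-like, 15 striatal projection neuron-like and 7 glutamatergic-like nuclei. Nrg3 followed in hSyn1 at 115.0 CPM. In a sum over a vector, more nuclei of a class and more RNA per nucleus cannot be told apart.

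**Figure D5:**
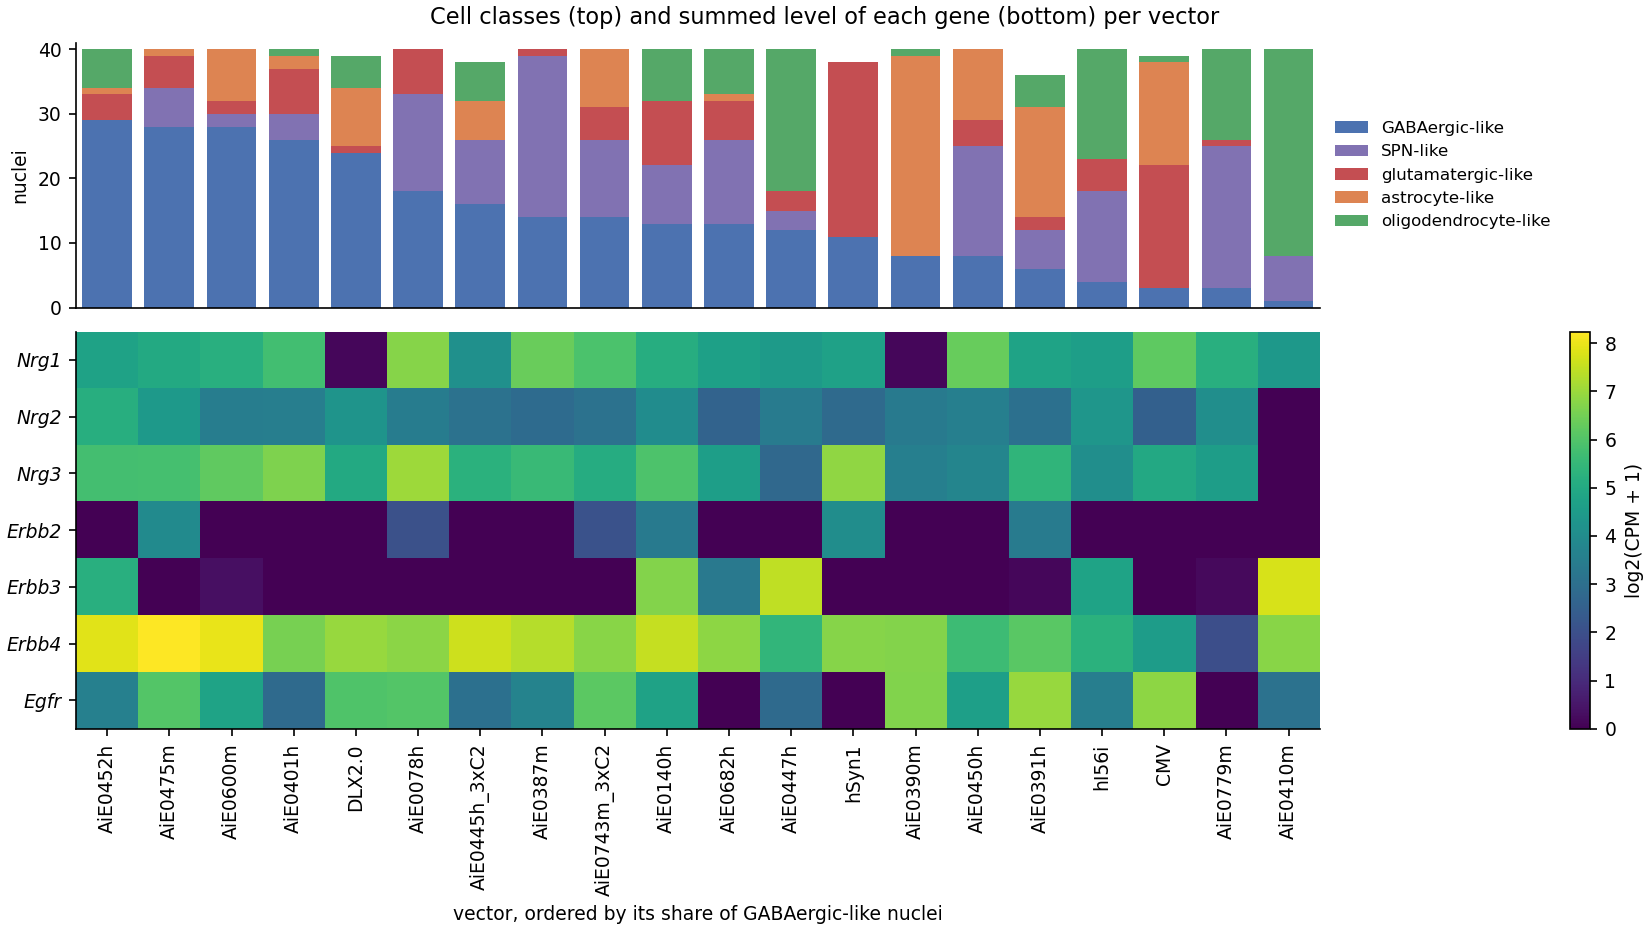
Nuclei of each class with at least 500 genes per vector (top, counts of nuclei) and level of each gene over all 40 nuclei of a vector as log2(CPM + 1) (bottom), with vectors ordered by their share of GABAergic-like nuclei. Erbb3 is at 0 in 11 of 20 vectors and highest in AiE0410m, while Erbb4 is above 0 in all 20.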

How the data were processed

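Nuclei were profiled by SMART-Seq v4 with 1 nucleus per library, full-length and without molecular identifiers, per the labels' protocols. The authors deposited raw counts per Ensembl gene, with STAR 2.7.2a and mm10 per the submitters' processing notes. No source used here gives the annotation or counting rule. Symbols came from GENCODE M21. The table also holds 1701 columns without a sample label, which were not used. Identical libraries were looked for and 0 found.

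Nuclei with at least 500 genes were clustered (scanpy 1.11.5, Leiden, resolution 1, 2000 variable genes, 30 components), with the 7 members and 69 pathway genes left out, and named from marker lists. No doublet caller was run. Counts were summed per vector and class (at least 3 nuclei) and tested with edgeR 4.0.16 (quasi-likelihood, TMM, filterByExpr, vector as block, Benjamini-Hochberg over all genes, threshold 0.05). The block pairs the 2 sums that share a vector label. On simulated data with 200 genes changed by a log2 change of 8, edgeR recovered 155 (of 8608 genes, oligodendrocyte-like comparison) to 198 (of 9214 genes, striatal projection neuron-like against GABAergic-like). The simulated means did not differ between vectors, and smaller changes were not simulated, so power for them is not known from this. Named genes are the members, the 2 called pathway genes with the smallest adjusted p per direction and comparison, and the 3 most alike genes per member. Members, lists and markers were chosen with earlier results of these data known. DESeq2 1.42.0, other scalings, filters, depths, classes, left-out vectors and series were alternatives.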

Additional observations from a re-analysis of the deposited data

Results flagged for a closer look

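In groups of 4 to 10 vectors, a vector was set apart where its gap to the nearest other exceeded Dixon's 95% critical value. Of 9 groups tested 5 had such a vector. In 4 of them all other vectors were at 0, where any vector above 0 is set apart. The rate of about 1 group in 20 that chance gives does not apply to those. Of the 5 classes only the astrocyte-like (8 vectors) and oligodendrocyte-like (10) have 4 to 10 vectors. The neuron classes, with 12 to 19 vectors, were therefore not tested in this way. In astrocyte-like nuclei Nrg1 was at 0.117 CPM in AiE0390m (1 of 31 nuclei) and Nrg3 at 0.594 CPM in AiE0391h (2 of 17 nuclei), with all 7 other vectors at 0. Erbb2 was at 18.99 CPM in astrocyte-like nuclei of AiE0391h, from 1 of 17 nuclei, with the others at 0. Nrg2 was at 21.7 CPM in astrocyte-like nuclei of DLX2.0, from 2 of 9 nuclei, with the next vector at 9.89 CPM. In oligodendrocyte-like nuclei Nrg2 was at 6.19 CPM in AiE0140h, from 1 of 8 nuclei, and at 0 in the other vectors.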

How the results depend on the processing

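Of 126 alternative counts of members called, 102 stayed within 1.5 times the main count. Between GABAergic-like and glutamatergic-like nuclei 1 member was called, 2 without the low-count filter (with Egfr) and 0 when runs of 8 consecutive nuclei were the unit, where Erbb4 did not pass the filter. Of all genes these fits called 268 of 9121, 498 of 20522 and 97 of 4659. For striatal projection neuron-like against GABAergic-like nuclei the 1 call became 3 with DESeq2, 3 without the filter, 2 with a minimum of 1000 genes, 2 with a marker score, and 1 to 2 when a vector was left out. Of all genes the main fit called 690 of 9214. The alternatives called, in that order, 2544 of 9214, 1363 of 20520, 800 of 9315, 631 of 9423, and 559 of 9062 to 812 of 9337. For striatal projection neuron-like against glutamatergic-like nuclei DESeq2 made 1 call in place of 0, with 1056 of 7745 genes called in place of 221. The 2 calls in astrocyte-like nuclei became 0 with runs as the unit, 1 in series S40324 and 0 in series S40326. Of all genes the main fit called 1805 of 9795 and these alternatives 103 of 3365, 230 of 8188 and 524 of 10229. The 2 calls in oligodendrocyte-like nuclei became 6 without the filter, 1 without the replicate block, 1 with a minimum of 1000 genes, 0 with runs as the unit, 1 in series S40324, 0 in series S40326, 1 without runs of 8 that hold striatal projection neuron-like nuclei (chosen after seeing the data) and 0 to 3 when a vector was left out. Of all genes the main fit called 4010 of 8608. The alternatives called, in that order, 7300 of 20001, 1164 of 8608, 3535 of 8117, 207 of 3119, 249 of 6871, 256 of 9457, 1121 of 7142, and 3358 of 8599 to 4676 of 8918. Between Sst-like and Pvalb-like nuclei a marker score left 0 of 1, with 39 of 7366 genes called against 32 of 7228. The causes were not tested beyond fewer vectors in single series. The changes that turned sign, all uncalled, were Nrg2 for striatal projection neuron-like against GABAergic-like nuclei (0.082 without the replicate block, -0.87 to 0.10 when a vector was left out, above 0 without AiE0401h, AiE0475m or AiE0682h) and against glutamatergic-like nuclei (0.89 without the block, 0.10 in series S40326, -0.88 to 0.39 when a vector was left out, above 0 without AiE0140h, AiE0401h, AiE0475m or AiE0682h), Nrg1 for the latter (-0.26), Egfr in astrocyte-like nuclei (-1.33) and Nrg3 for Sst-like against Pvalb-like nuclei (-0.57), the last 3 in series S40326. Series S40324 alone could be fitted only for the glial comparisons.

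Over all genes, in the order of comparisons above, edgeR called 268, 690, 221, 1805, 4010 and 32, and DESeq2 1589, 2544, 1056, 5284, 6597 and 625. DESeq2's split was 1064 higher and 525 lower (edgeR 150 and 118), 763 and 1781 (300 and 390) and 201 and 424 (14 and 18) in the first, the second and the last. Other splits moved by over 10 percentage points or turned. Without the block they were 107 higher and 144 lower, 323 and 269, 386 and 540, and 228 and 936 in the first, the second, the astrocyte-like and the oligodendrocyte-like comparison (edgeR with the block 373 and 1432, and 209 and 3801, in the last pair). With runs as the unit they were 23 and 74 in the first, 28 and 29 in the third, 37 and 66 and 55 and 152 in the glial ones and 8 and 5 in the last. In series S40324 they were 118 and 112 for astrocyte-like and 87 and 162 for oligodendrocyte-like nuclei. In series S40326 they were 203 and 185 in the second, 23 and 26 in the third, and 172 and 352 and 116 and 140 in the glial ones. The third, 115 and 106 with edgeR, was 110 and 113 with RLE, 498 and 558 with DESeq2 and 177 and 205 without the filter. The last was 68 and 49 without the filter and 19 and 18 with RLE. Without the filter the calls were 498, 1363, 382, 2430, 7300 and 117. Without the block they were 926 in astrocyte-like, 1164 in oligodendrocyte-like and 17 in Sst-like nuclei. Runs as the unit gave 97, 190, 57, 103, 207 and 13, series S40326 gave 83, 388, 49, 524, 256 and 10, and series S40324 gave 230 and 249 in the glial comparisons. Without runs that hold striatal projection neuron-like nuclei the calls were 48, 837, 1121 and 21, the comparisons with that class apart. Leaving out 1 vector gave as few as 18 calls for Sst-like nuclei. Scaling by RLE moved the median of all genes by over 0.1 only for striatal projection neuron-like against glutamatergic-like nuclei, from 0.03 to -0.08.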
